A study of Mus musculus with 305 samples.

Results

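The dorsal striatum of mice given heroin again after a long withdrawal was compared with the dorsal striatum of mice given saline at that point. The libraries were chosen by the region in their label (dStri) and by their group, HH (8 libraries) or HS (8 libraries). They are 16 of the 51 dorsal striatum libraries of a bulk RNA-seq study of heroin intake and relapse, which holds 51 libraries in each of 5 brain regions and 50 in BLA, from 51 male mice. The mice of both groups were wild-type males that had taken heroin through an intravenous line for 15 d and then spent 30 d in withdrawal. A challenge followed, heroin in HH mice and saline in HS mice, and drug seeking was then tested for 2 h. Neither the strain nor the age of the mice is given in the sources used here. The mice of 2 other groups, with 8 libraries each, had taken saline for the same time, and met the same test after a heroin challenge (SH) or a saline challenge (SS). Each library came from 1 mouse, and the question asked here is which transcripts of the dorsal striatum differ when mice with a heroin history meet heroin again.

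Most neurons of the dorsal striatum are GABAergic projection neurons. One class carries the dopamine receptor Drd1 and the peptide precursor Pdyn, and the other carries Drd2 and Penk. Heroin is converted to morphine, which acts on the mu opioid receptor, Oprm1, on some of these neurons and on the cells that innervate them, and opioids raise dopamine release in the striatum. Immediate early genes are transcribed within minutes of neuronal activity. Heat shock proteins and their partners fold other proteins, and cells make more of them when they are warmed or when damaged proteins accumulate.

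The libraries held between 22.91 and 36.51 M counts in HH and between 21.00 and 41.03 M in HS. The label of the region could be checked against 13 tested markers of striatal projection neurons, among them Ppp1r1b and Pde10a. Their mean log2 CPM (read counts relative to library size, scaled with TMM factors) lay between 9.53 and 9.95 in HH and between 9.68 and 9.91 in HS, so the markers were abundant in every library and the groups overlapped. Library HS mouse 11 stood apart from the other libraries of the region, 6.58 scaled median absolute deviations below their median rank correlation. HH mouse 9 lay 3.33 below it, inside the limit of 4, with the lowest projection neuron value (9.53) and the highest astrocyte value (7.33) of its group. HS mouse 11 also had the highest mean of cortical and hippocampal excitatory neuron markers in HS (4.54, the others up to 3.58), and HH mice 7 and 5 the highest in HH (4.28 and 3.90, the others up to 2.89). The share of mitochondrial counts overlapped, at 3.10 to 6.13% in HH and 3.23 to 5.23% in HS. Both groups held 6 mice of 1 sample code set and 2 of another.

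Of 52636 genes in the table, 19492 passed the low-count filter and were tested with edgeR's quasi-likelihood test. At an adjusted p under 0.05 the test called 0 genes (0% of those tested), and 842 genes (4.32%) had an unadjusted p under 0.05, 361 of them higher in HH (1.85%) and 481 lower (2.47%). The smallest adjusted p was 0.260 and was shared by 3 genes, Dnajb1, Fbxo30 and Nr4a3, which were 1.32, 1.401 and 1.52 times as high in HH. DESeq2, run as an alternative on the same counts, called these 3 genes and no other, each with an adjusted p of 0.0177. With any 1 of the 16 libraries left out, DESeq2 called between 0 and 6 genes, and 0 without HH mouse 9, HH mouse 18, HS mouse 11, HS mouse 13 or HS mouse 23. Over all genes tested the median log2 difference was -0.004, with 48.7% higher in HH. No gene had all HH libraries above all HS libraries, and 1 gene (0.00513% of those tested), the model gene Gm12263, had all of them below. It was chosen after its values were seen.

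Genes of protein folding were higher in HH in most libraries. Of 18 tested members of the heat shock and chaperone list, 15 were higher in HH, the median log2 difference was 0.20 against -0.004 over all genes, and 0 were called by edgeR. An unadjusted p under 0.05 was reached by 11 members with a higher value and by 0 with a lower one, where 1.85% of all genes tested reached it with a higher value. These were Dnajb1, Hspa1a, Hspa1b, Hsph1, Hspa8, Hsp90aa1, Hsp90ab1, Hspa5, Hspd1, Hspb1 and Chordc1. They span the Hsp70 and Hsp90 machines of the cytosol with their partners, the endoplasmic reticulum chaperone Hspa5 and the mitochondrial chaperone Hspd1.

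Dnajb1 (chr8:83608193-83612653, mm10) encodes an Hsp40 protein, which hands unfolded clients to Hsp70. Its level ran from 72.8 through a median of 89.03 to 109.7 CPM in HH and from 53.6 through 70.2 to 79.3 CPM in HS. All 8 HH libraries lay above the HS mean and 7 lay above the highest HS library, so the groups overlapped by the lowest HH library, mouse 1. The means were 90.2 ± 11.4 and 68.6 ± 8.52 CPM (SD, n = 8 each), a log2 difference of 0.40 ± 0.080 (SE, adjusted p = 0.260 with edgeR). Within the mouse sets the difference was 0.39 in set 1 (6 against 6) and 0.41 in set 2 (2 against 2). Without HS mouse 11, which was lowest in its group, it was 0.35 with an adjusted p of 0.613 in edgeR, and without HH mouse 9 it was 0.37.

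Hspa1a (chr17:34969190-34972156) and Hspa1b encode the inducible Hsp70 and are nearly identical, so the split of reads between them is uncertain. Hspa1a ran from 1.72 through 3.58 to 10.85 CPM in HH and from 1.13 through 1.85 to 3.38 CPM in HS. Its log2 difference was 1.00 ± 0.30 (adjusted p = 0.997 with edgeR). That value rests in part on 1 library, HH mouse 25, which held the 10.85 CPM, and without it the difference was 0.59. Hspa1b ran from 4.47 to 22.3 CPM in HH and from 2.86 to 10.3 CPM in HS, with a log2 difference of 0.68 ± 0.26. At the level of both genes 6 and 7 of 8 HH libraries lay above the HS mean, and 4 and 3 lay above the highest HS library.

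The abundant chaperones differed less on the log2 scale. Hspa8, the constitutive Hsp70, ran from 1930 through 2213 to 2666 CPM in HH and from 1626 through 2005 to 2320 CPM in HS, a log2 difference of 0.19 ± 0.072. Hsp90aa1 and Hsp90ab1, the cytosolic Hsp90 proteins, differed by 0.23 ± 0.087 and 0.22 ± 0.099, and 5 of 8 HH libraries lay above the highest HS library for either gene. Hsph1, an Hsp110 protein that recharges Hsp70, differed by 0.32 ± 0.13, and Chordc1, an Hsp90 partner, by 0.23 ± 0.077. Hspa5 was above the HS mean in 8 of 8 HH libraries and above the highest HS library in 0. Each of these genes had an adjusted p of 0.997 in edgeR. The list also held 2 cold-inducible RNA-binding proteins, and these had the opposite sign: Rbm3 differed by -0.21 ± 0.12, below the HS mean in 8 of 8 libraries, and Cirbp by -0.07 ± 0.10. Hsf1, the factor that drives heat shock transcription, was at 35.8 CPM in HH and 37.2 CPM in HS.

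The number of chaperones with an unadjusted p under 0.05 depended on the libraries. It ran from 7 without HH mouse 25, or without HS mouse 3, to 12 without HS mouse 12, and was 9 without HS mouse 11 and 10 without HH mouse 9. The list's median log2 difference ran from 0.16 to 0.23 over all alternatives and was 0.22 in each mouse set, with 15 of 18 members higher in set 1 and 13 in set 2.

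**Figure D1:**
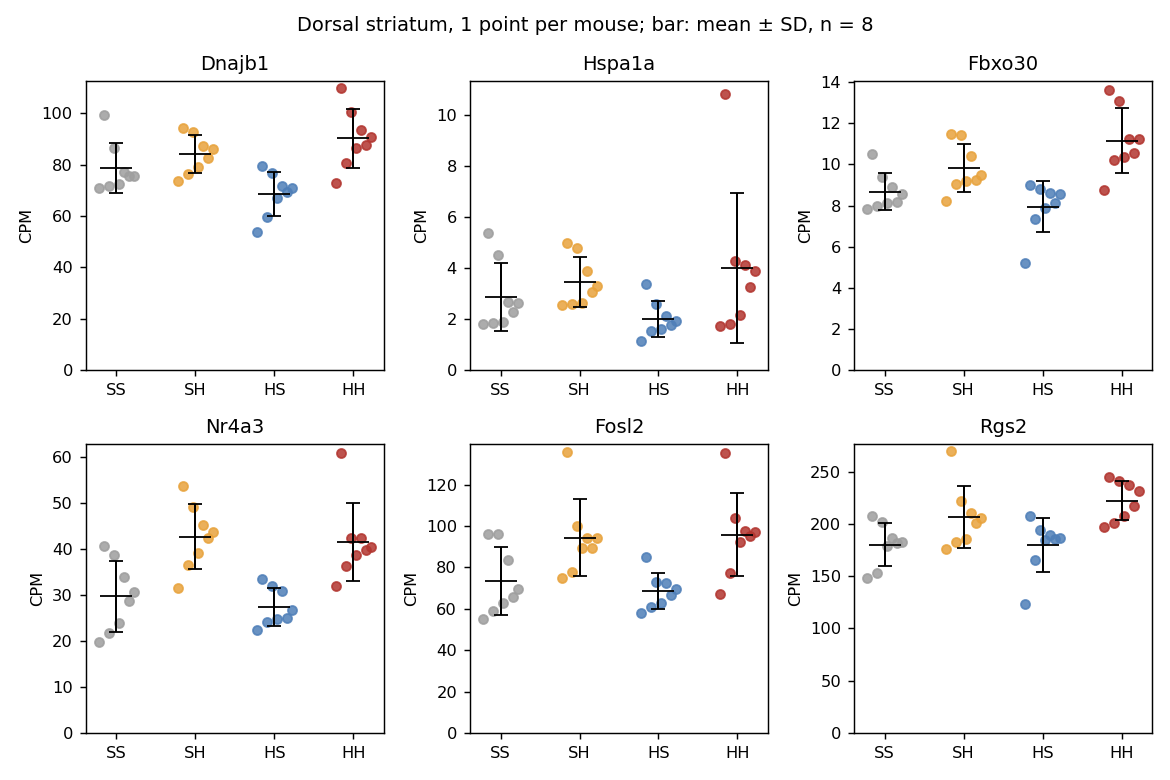
Levels of 6 genes in dorsal striatum by group, in CPM, with 1 point per mouse and a bar at the mean ± SD (n = 8). For Dnajb1, Fbxo30 and Nr4a3, 7 of 8 HH points lie above the highest HS point, while 1 HH point (10.85 CPM) stands far above the rest for Hspa1a.

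The promoters of 2 of these genes are shown because they hold the motif that heat shock factor binds, an inverted pair of GAA letters. They are the 250 bases before the RefSeq start site (GRCm38.p6), written on the strand of the gene, with the match in capitals. The first lies at chr17:34972157-34972406 and the second at chr5:149636337-149636586, both on the minus strand.
Hspa1a: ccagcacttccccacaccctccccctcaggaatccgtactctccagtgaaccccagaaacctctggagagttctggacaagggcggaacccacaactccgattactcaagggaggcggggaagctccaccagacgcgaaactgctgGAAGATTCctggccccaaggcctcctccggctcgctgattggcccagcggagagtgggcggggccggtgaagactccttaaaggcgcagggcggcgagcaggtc
Hsph1: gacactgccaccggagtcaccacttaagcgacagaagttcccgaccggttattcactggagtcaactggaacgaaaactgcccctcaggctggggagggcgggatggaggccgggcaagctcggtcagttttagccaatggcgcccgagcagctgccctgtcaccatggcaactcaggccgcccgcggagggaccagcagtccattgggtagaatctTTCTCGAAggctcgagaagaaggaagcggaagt
The pair was searched in 2 arrangements, GAANNTTC and TTCNNGAA, in all 32851 listed promoters. Each arrangement reads the same on both strands. A match was present in 6 of the 12 list members with a listed promoter, which is 50.0%, against 12.8% of all promoters and 14.5% of all genes. Of the 8 members with a listed promoter and an unadjusted p under 0.05, 5 held it (Hspa1a, Hspa1b, Hspb1, Hsph1 and Hspd1). Dnajb1, the chaperone with the smallest p, has a listed promoter and held no match. A match describes the letters of the window and is not a measured binding site.

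Genes of the immediate early response were the other group that stood higher in HH. Of 34 members tested, 30 were higher, where 48.7% of all genes were, and the median log2 difference was 0.15. An unadjusted p under 0.05 was reached by 13 of the higher members, against 1.85% of all genes in that direction, and by 0 of the lower ones, and edgeR called 0. Those 13 were the orphan nuclear receptors Nr4a3 and Nr4a1, the AP-1 subunits Fosl2, Fosb and Junb, the zinc finger factors Egr2 and Egr4, the stress factor Atf3, the synaptic gene Arc, the signalling brakes Rgs2 and Dusp6, and Tiparp and Ier5.

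Nr4a3 (chr4:48045153-48086447) ran from 31.9 through 40.1 to 60.8 CPM in HH and from 22.4 through 25.8 to 33.4 CPM in HS. All 8 HH libraries lay above the HS mean, and 7 lay above the highest HS library. Its log2 difference was 0.60 ± 0.13 (adjusted p = 0.260 with edgeR), 0.67 in mouse set 1 and 0.36 in mouse set 2. With any 1 library left out it was 0.51 to 0.65, the lowest without HH mouse 7, which held the 60.8 CPM. It was 0.60 without HS mouse 11 and 0.61 without HH mouse 9.

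Fosl2 (chr5:32135801-32157842) encodes the AP-1 subunit Fra-2. It ran from 66.96 through 96.2 to 135.3 CPM in HH and from 57.8 through 68.01 to 85.03 CPM in HS. Its log2 difference was 0.48 ± 0.12, with 7 of 8 HH libraries above the HS mean. Rgs2 (chr1:143999338-144004161), which shortens signalling by G proteins, ran from 197.4 through 224.8 to 244.8 CPM in HH and from 123.2 through 186.2 to 207.8 CPM in HS. The log2 difference of Rgs2 was 0.31 ± 0.085, and 5 of 8 HH libraries lay above the highest HS library. Nr4a1 ran from 150.6 through 209.8 to 326.9 CPM in HH and from 76.1 through 139.6 to 203.5 CPM in HS, a log2 difference of 0.57 ± 0.19. These 3 genes had an adjusted p of 0.997 in edgeR. In mouse sets 1 and 2 Fosl2 differed by 0.47 and 0.46 and Rgs2 by 0.34 and 0.24. Without HS mouse 11, the lowest library for Rgs2, the difference of Rgs2 was 0.24.

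The best known member, Fos, differed by 0.38 ± 0.23 on the log2 scale (adjusted p = 0.997 with edgeR). It ran from 11.7 through 19.2 to 35.2 CPM in HH and from 5.58 through 15.5 to 27.5 CPM in HS. Of the HH libraries 7 of 8 lay above the HS mean, and 1 lay above the highest HS library. The Fos difference was 0.55 in mouse set 1 and 0.08 in mouse set 2, and with 1 library left out it ran from 0.24 (without HH mouse 7) to 0.53 (without HS mouse 2). Other activity genes lay close to zero, among them Homer1 (0.03), Egr3 (0.05), Npas4 (0.08) and Klf10 (0.00). Within the list the log2 difference thus ran from -0.15 for Bdnf to 0.86 for Atf3, a stress-induced factor that held a mean of 1.11 CPM in HH and 0.61 CPM in HS.

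Single libraries carried part of the immediate early result. Without HH mouse 7, the library with the highest Nr4a3, Fosl2 and list value, the list's median was 0.09 and 7 members had an unadjusted p under 0.05. The number was 8 without HS mouse 11 and 8 without HS mouse 3, and the highest was 14, without HS mouse 2. The list's mean log2 CPM ran from 4.42 to 5.08 in HH and from 4.21 to 4.63 in HS, so the groups overlapped, with 6 of 8 HH libraries above the HS mean. HH mice 7 and 5 had the highest immediate early values of their group (5.08 and 4.77) and also its highest cortical and hippocampal marker values, and they held the most Nr4a2, a list member, at 30.1 and 13.5 CPM. In HS the library with the highest cortical marker value, mouse 11, had the lowest immediate early value (4.21), with Nr4a2 at 28.2 CPM. With the cortical marker score as a term in the fit, the list's median was 0.16 and 13 members had an unadjusted p under 0.05. In mouse set 1 the list's median was 0.19 with 30 of 34 higher, and in set 2 it was 0.10 with 20 higher.

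The promoter of Nr4a3 is shown because it holds several copies of TGACG, the core of the cAMP response element, through which CREB acts when neurons are active. The window lies at chr4:48045055-48045304 on the plus strand of GRCm38.p6 (RefSeq), and the matches are in capitals. The GENCODE start of Nr4a3 (48045153) falls inside this window. The last match shown lies after that start, and the others lie before it.
Nr4a3: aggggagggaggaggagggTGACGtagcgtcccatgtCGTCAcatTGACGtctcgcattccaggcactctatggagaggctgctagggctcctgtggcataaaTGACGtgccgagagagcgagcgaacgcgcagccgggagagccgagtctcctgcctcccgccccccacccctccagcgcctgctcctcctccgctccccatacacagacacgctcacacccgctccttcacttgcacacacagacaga
The letters TGACG, or CGTCA on the other strand, matched 4 times here. They were present in 18 of the 26 immediate early genes with a listed promoter (69.2%), against 17.8% of all promoters and 19.8% of all genes. Of the 12 members with a listed promoter and an unadjusted p under 0.05, 8 held a match, a share no higher than that of the list. Among the chaperones, 7 of 12 promoters held it (58.3%), Dnajb1 included.

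**Figure D2:**
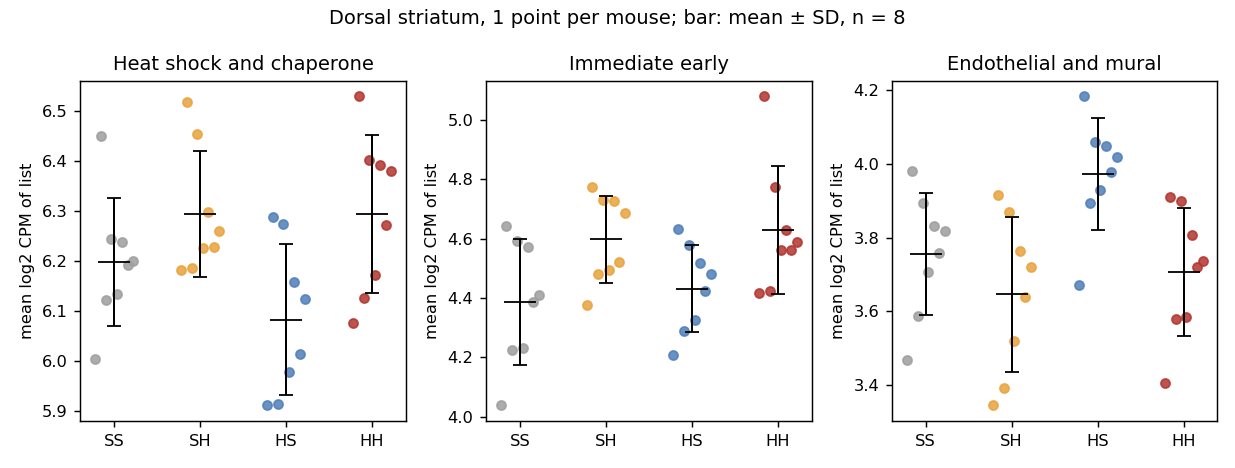
Mean log2 CPM of the heat shock and chaperone, immediate early and endothelial and mural lists in each library of dorsal striatum, with bars at the mean ± SD (n = 8 per group). The HS group has the lowest chaperone mean (6.08) and the highest endothelial and mural mean (3.97) of the 4 groups. The mouse sets are not balanced between the heroin-history and saline-history groups.

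Further genes with the smallest p among the higher ones have roles in ubiquitin transfer, transcription and RNA methylation. Fbxo30 (chr10:11281330-11298052), the substrate receptor of a ubiquitin ligase, ran from 8.78 through 10.9 to 13.6 CPM in HH and from 5.21 through 8.34 to 9.02 CPM in HS. Only mouse 7 of the HH libraries lay within the HS range. The log2 difference was 0.49 ± 0.10 (adjusted p = 0.260 with edgeR), 0.52 in mouse set 1 and 0.39 in set 2, and 0.42 without HS mouse 11, the lowest library. Without HH mouse 9, the highest, it was 0.44. Med7, a subunit of the Mediator complex, ran from 5.43 through 5.84 to 6.88 CPM in HH and from 3.38 through 4.20 to 6.01 CPM in HS, a log2 difference of 0.47 ± 0.12. Mettl16, an RNA methyltransferase, differed by 0.22 ± 0.061, with 6 of 8 HH libraries above the highest HS library. Gskip, which binds GSK3B and protein kinase A, differed by 0.25 ± 0.069. Its HH libraries lay above the HS mean in 8 of 8 cases and above the highest HS library in 2. Each of the last 3 genes had an adjusted p of 0.997 in edgeR. In sets 1 and 2 Med7 differed by 0.49 and 0.49, Mettl16 by 0.24 and 0.15, and Gskip by 0.30 and 0.10. Gskip was highest in HH mouse 9 (53.8 CPM), and without that library its difference was 0.20.

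The 8 lower genes with the smallest p had an adjusted p of 0.997 each in edgeR, and 0 of them was called by DESeq2. Among them were genes known from vessel, glial and immune cells. Slco1a4 (chr6:141805440-141856199), a transporter of the blood-brain barrier, ran from 34.3 through 40.8 to 45.9 CPM in HH and from 41.6 through 48.6 to 63.98 CPM in HS. It lay below the HS mean in 8 of 8 HH libraries and below the lowest HS library in 4, with a log2 difference of -0.30 ± 0.086. Angptl4, a secreted inhibitor of lipoprotein lipase, differed by -0.60 ± 0.17. It ran from 2.92 through 3.78 to 4.27 CPM in HH and from 3.83 through 5.16 to 9.10 CPM in HS. Itpr2, the calcium release channel that predominates in astrocytes, differed by -0.31 ± 0.090. Efna3, an ephrin, differed by -0.29 ± 0.086, with 6 of 8 HH libraries below the lowest HS library. Naglu, a lysosomal enzyme that degrades heparan sulfate, differed by -0.39 ± 0.11. The remaining 3 were expressed at low levels: Gpsm3 (0.97 CPM in HH and 1.81 in HS), Lyl1 (1.404 and 2.42 CPM) and Rsad2 (1.12 and 2.21 CPM). Gpsm3, a regulator of G proteins of immune cells, differed by -0.89 ± 0.24, Lyl1, a factor of blood and endothelial cells, by -0.78 ± 0.22, and Rsad2, an interferon-induced antiviral protein, by -0.98 ± 0.28. The mouse sets gave close values for Gpsm3 (-0.84 in set 1 and -0.89 in set 2) and Angptl4 (-0.58 and -0.47). They gave unlike values for Rsad2 (-1.19 and -0.13), Lyl1 (-0.91 and -0.15) and Naglu (-0.52 and -0.07), with 2 mice a group in set 2.

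Markers of vessel cells were lower in HH as a group of values. All 14 endothelial and mural markers had a negative difference, with a median of -0.25, and 6 had an unadjusted p under 0.05 (Slco1a4, Pecam1, Rgs5, Ly6c1, Pdgfrb and Flt1), where 2.47% of all genes had one in that direction. Their summed level ran from 288.7 to 398.2 CPM in HH and from 327.2 to 493.3 CPM in HS, so the groups overlapped, and none of the defining markers was at 0. In bulk tissue, fewer cells of a type and less RNA per cell cannot be told apart. In mouse set 1 all 14 markers were lower (median -0.33), while in set 2, with 2 mice a group, 7 of 14 were higher (median 0.007), so the difference did not hold within set 2. Slco1a4 and Itpr2 differed by -0.38 and -0.42 in set 1 and by -0.02 and 0.07 in set 2. In the other regions, with 13 of these markers tested, the median was 0.18 in vHPC, 0.02 in BLA, -0.10 in PFC, -0.04 in VTA and -0.01 in NAc.

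Of the markers of some other non-neuronal cells, too, more were lower in HH than higher. Meningeal fibroblast markers were lower for 11 of 12 (median -0.26), and 2 of the 12, Col3a1 and Dcn, had an unadjusted p under 0.05, against 2.47% of all genes in that direction. Their median was -0.17 without HS mouse 11. Blood markers were lower for 5 of 7 (median -0.28), Alas2 and Hbb-bs with such a p. With 1 library left out, the number with such a p ran from 0 (without HS mouse 11) to 4 (without HH mouse 9) for blood and from 1 to 3 for meningeal markers. Without HS mouse 11 the blood median was -0.26, and without HH mouse 9 it was -0.36.

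For microglia all 12 markers had a negative difference (median -0.10). Their summed level ran from 417.7 to 541.0 CPM in HH and from 452.2 to 617.3 CPM in HS. Astrocyte markers were lower for 10 of 12 (median -0.07). In either list 1 of 12 markers had an unadjusted p under 0.05, Sox9 among the astrocyte markers, where 2.47% of all genes had one in that direction, and no result is read from 1 marker. That number was 0 to 3 for both lists with 1 library left out, and 3 for astrocytes without HH mouse 9. The medians moved with single libraries, from -0.13 (without HH mouse 9) to -0.06 (without HS mouse 14) for microglia and from -0.15 (without HH mouse 9) to -0.03 (without HH mouse 5) for astrocytes. In mouse set 2 the microglia median was 0.01 and the astrocyte median -0.01. In the other regions, from the same mice, the microglia median ran from -0.14 in NAc to -0.07 in BLA. The astrocyte median there ran from -0.01 in PFC to 0.09 in vHPC. Oligodendrocyte markers had a median of -0.03, and oligodendrocyte precursor markers were higher for 4 of 8. Choroid plexus and ependyma markers had the opposite sign, with 6 of 9 higher and a median of 0.10, which was 0.17 in mouse set 1, 0.19 in set 2 and -0.005 without HH mouse 9. The part of these cell types in the differences above was not tested.

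**Figure D3:**
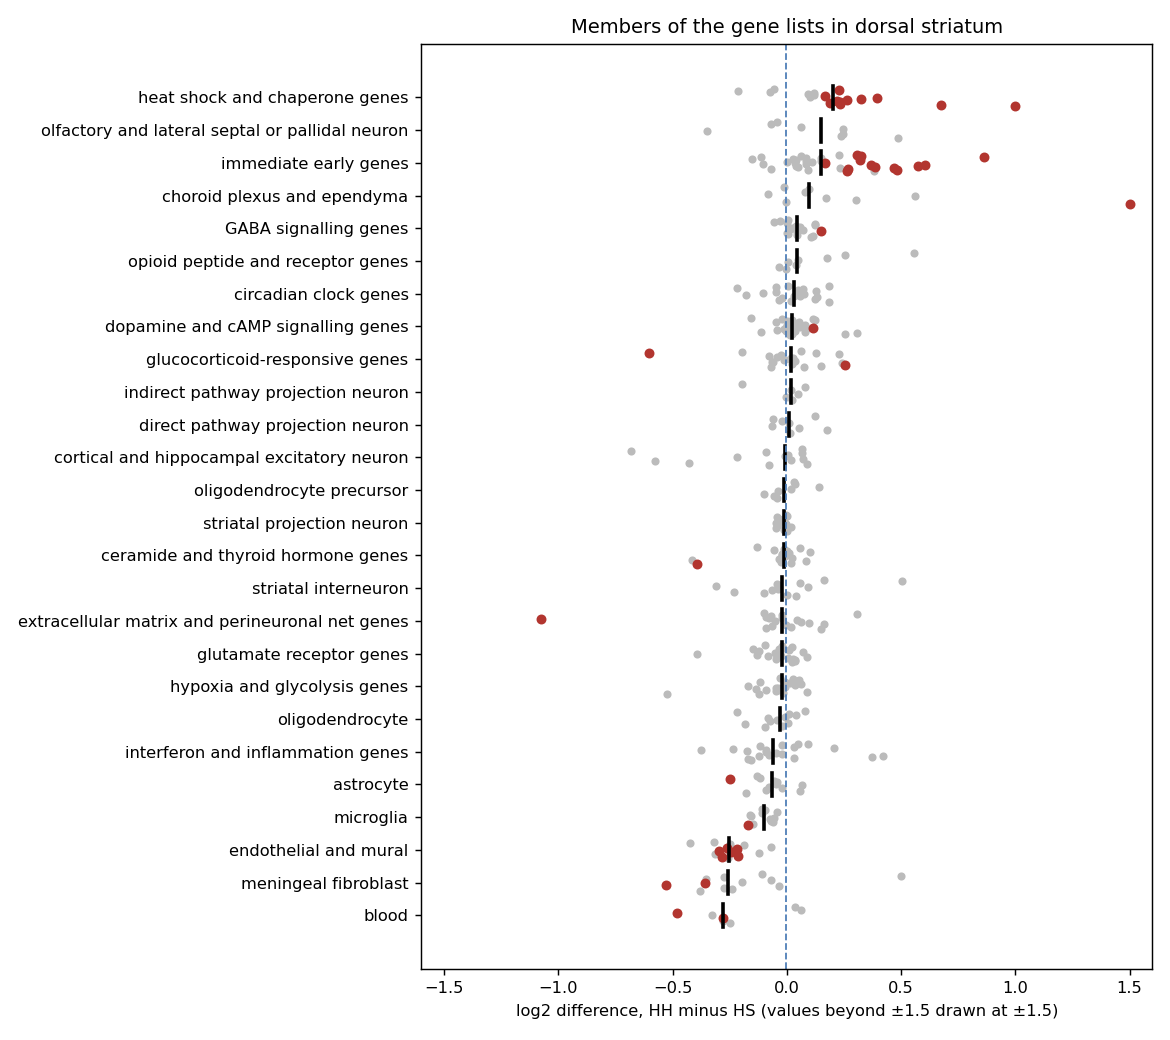
Log2 difference HH minus HS of every tested member of 26 gene lists in dorsal striatum, ordered by list median. Red points have an unadjusted p under 0.05, grey points do not, black bars are list medians, the dashed line is the median of all genes (-0.004), and Ttr (2.01) is drawn at the edge. The heat shock list lies furthest to the right and the blood, meningeal and endothelial lists furthest to the left.

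Genes of the opioid, dopamine and GABA systems differed little. Of 8 opioid peptide and receptor genes 6 were higher (median 0.04) and 0 had an unadjusted p under 0.05. Oprm1, the receptor through which heroin acts, had a log2 difference of -0.002 ± 0.13 whose sign changed with the libraries left out. It ran from 12.7 through 16.1 to 20.3 CPM in HH and from 12.3 through 15.5 to 24.0 CPM in HS. Penk, the enkephalin precursor, differed by 0.05 ± 0.081 and ran from 972 to 1279 CPM in HH and from 1087 to 1264 CPM in HS. Pdyn, the dynorphin precursor, differed by 0.18 ± 0.17, and by 0.11 without HH mouse 16. The projection neuron receptors Drd1 (0.01 ± 0.060) and Drd2 (0.02 ± 0.092) lay within their error of zero. Over 31 genes of dopamine and cAMP signalling 24 were higher with a median of 0.02. An unadjusted p under 0.05 was reached by 1 of them, where 1.85% of all genes had one in that direction. No result is read from 1 gene. It was Prkar1a, a regulatory subunit of protein kinase A, which differed by 0.11 ± 0.055, with 6 of 8 HH libraries above the highest HS library. Of 19 GABA genes 16 were higher with a median of 0.04. Gabra2, a receptor subunit, differed by 0.15 ± 0.064, and Gad1, which makes GABA, by 0.11 ± 0.060. Of 22 glutamate receptor genes 9 were higher with a median of -0.02, and none had an unadjusted p under 0.05. All genes of these lists had an adjusted p of at least 0.997 in edgeR.

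Other lists lay near the median of all genes. Glucocorticoid-responsive genes were higher for 12 of 21 (median 0.02). The members with an unadjusted p under 0.05 were 1 higher, Zbtb16, a zinc finger factor, at 0.25 ± 0.12, and 1 lower, Angptl4. Over all genes 1.85% and 2.47% had one in these directions, and no result is read from single members. Fkbp5, which restrains the glucocorticoid receptor, differed by 0.08 ± 0.067. Circadian clock genes had a median of 0.03, with Per1 at 0.19 ± 0.12 and Cry1 at 0.12 ± 0.071 (0.08 without HS mouse 11). Hypoxia and glycolysis genes had a median of -0.02, with Aldoc at -0.12 ± 0.076 (-0.17 without HH mouse 9) and Adm at -0.52 ± 0.34 (-0.28 without HS mouse 14). Interferon and inflammation genes had a median of -0.06, with Gbp3 at -0.38 ± 0.20 and C4b at -0.23 ± 0.13 (-0.13 without HS mouse 14). Matrix and perineuronal net genes had a median of -0.02, with Bcan at -0.09 ± 0.068 (-0.06 without HS mouse 3) and Tnr at 0.10 ± 0.073 (0.06 without HH mouse 7). In the ceramide and thyroid hormone list (median -0.01), Acer2, a ceramidase, ran from 12.5 through 15.3 to 22.1 CPM in HH and from 15.9 through 19.0 to 31.0 CPM in HS, a difference of -0.39 ± 0.14. Hr, a target of thyroid hormone, differed by -0.13 ± 0.10, from -0.18 (without HH mouse 7) to -0.06 (without HH mouse 16) with 1 library left out. The choroid plexus marker Ttr had the largest listed difference, 2.01 ± 0.91, and ran from 0.04 through 3.04 to 24.1 CPM in HH and from 0.04 through 0.41 to 7.42 CPM in HS, with 1 HH library above the highest HS library.

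The same challenge was also given to mice without earlier heroin, in groups that share no library with HH and HS. Across 14814 genes at 1 CPM or more, the differences HH minus HS and SH minus SS had a Pearson r of 0.193 and a Spearman rho of 0.283, across genes, which are not independent replicates. SH against SS had 0 genes called by edgeR and 6 by DESeq2, and 1077 (5.53%) with an unadjusted p under 0.05 in edgeR, 3.57% higher and 1.95% lower. Immediate early genes were higher in SH for 24 of 34, with a median of 0.12. The cortical and hippocampal markers were higher too, for 12 of 13 with a median of 1.55, highest in SH mice 10, 19 and 27 (means of 4.87, 5.37 and 5.13, the other SH libraries up to 3.70). These libraries held 3 of the 4 highest immediate early values in SH (4.77, 4.68 and 4.73) and Nr4a2 at 36.9, 32.9 and 51.5 CPM. Without them the immediate early median was 0.10 with 24 of 34 higher, and with the marker score as a term it was 0.07 with 23 higher, in alternatives added after seeing the data. Nr4a3 was at 42.6 CPM in SH and 29.7 CPM in SS, a log2 difference of 0.52 ± 0.13, close to its 0.60 in mice with a heroin history. Without those 3 libraries the Nr4a3 difference was 0.54. Fosl2 differed by 0.36 ± 0.12, Dusp6 by 0.33 ± 0.115 (0.32 ± 0.115 between HH and HS) and Acer2 by -0.64 ± 0.14 between SH and SS.

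For the chaperones the saline-history difference was smaller. In SH 17 of 18 members were higher than in SS, with a median of 0.06 and 1 unadjusted p under 0.05. The mean log2 CPM of the list was 6.20 ± 0.13 in SS, 6.29 ± 0.12 in SH, 6.08 ± 0.15 in HS and 6.29 ± 0.16 in HH (SD, n = 8). The 2 heroin-challenged groups had the same mean to 2 decimals, and the HS group held the lowest. Dnajb1 showed this order at 78.6 CPM in SS, 84.02 CPM in SH, 68.6 CPM in HS and 90.2 CPM in HH. The endothelial and mural list was likewise set apart in HS, at 3.97 ± 0.15 against 3.76 ± 0.17 in SS, 3.65 ± 0.21 in SH and 3.71 ± 0.17 in HH. These means were not adjusted for mouse set, which was not balanced between the histories. Set 1 gave 6 of 8 mice in HS and in HH, 4 in SH and 3 in SS. The part of the set in the order of these means was not tested.

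The difference between the histories was tested as the interaction (HH minus HS) minus (SH minus SS). EdgeR called 0 of 19492 genes (0%), as did DESeq2, and 532 genes (2.73%) reached an unadjusted p under 0.05 in edgeR, 1.02% higher and 1.71% lower. The interaction was 0.30 ± 0.11 for Dnajb1, 0.31 ± 0.14 for Fbxo30 and 0.09 ± 0.18 for Nr4a3 on the log2 scale, each with an adjusted p of 0.9995 in edgeR. Over the chaperone list its median was 0.14 with 1 unadjusted p under 0.05, and over the immediate early list 0.10 with 3, which was 0.09 with 0 without SH mice 10, 19 and 27. The 3 genes with the smallest p were Lyl1 (-1.16 ± 0.32), the synaptic ligand Nxph3 (-2.16 ± 0.59) and the iodide transporter Slc5a5 (-1.26 ± 0.35), all with an adjusted p of 0.9995 in edgeR. Nxph3 was at 13.0 CPM in SH against 3.75 CPM in SS, 5.52 CPM in HS and 4.31 CPM in HH. The interaction of Nxph3 was -0.69 without SH mice 10, 19 and 27 and -0.55 with the cortical marker score as a term, that of Slc5a5 -0.68 and -0.51, and that of Lyl1 -1.06 and -0.94. The cortical and hippocampal marker median was -0.01 in HH over HS.

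**Figure D4:**
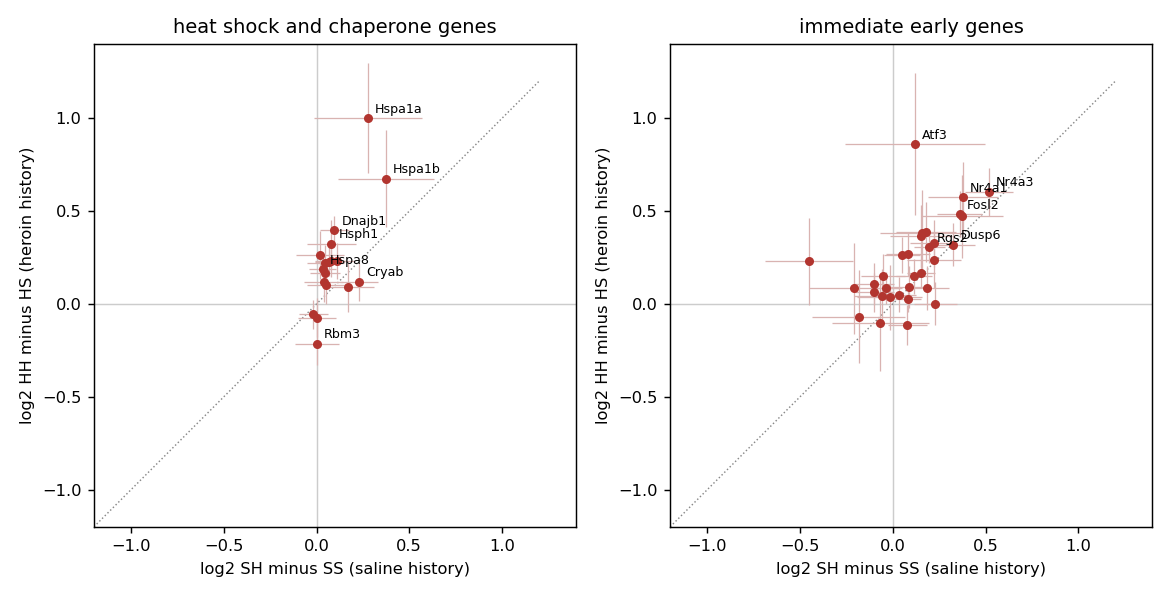
Log2 difference after heroin challenge in mice with a heroin history (HH minus HS, vertical) against mice with a saline history (SH minus SS, horizontal) for tested members of 2 lists, with SE bars and a dotted line of equality. Bdnf and Nr4a2 lie beyond 1.5 on the horizontal axis and are not drawn. Most chaperones lie above the line of equality (list median of the interaction 0.14), and Nr4a3 lies near it (0.09).

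The nucleus accumbens (NAc) is the nearest other region, and libraries of both regions came from the same 16 mice. In NAc edgeR called 0 genes for HH against HS, and 533 of 19756 (2.7%) had an unadjusted p under 0.05, 1.33% higher and 1.37% lower. The difference between the regions was tested over 32 libraries with the mouse as a block. EdgeR called 0 of 19816 genes (0%), DESeq2 called 1, Tinagl1, and in edgeR 680 (3.43%) reached an unadjusted p under 0.05, 1.67% higher and 1.76% lower in dorsal striatum. Tinagl1, a secreted matrix protein, differed between HH and HS by -0.18 ± 0.12 in dorsal striatum and 0.57 in NAc, an interaction of -0.74 ± 0.13 (adjusted p = 0.127 with edgeR and 0.00106 with DESeq2).

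Fbxo30 was among the genes with the smallest p in that test, at 0.49 in dorsal striatum and -0.06 in NAc, an interaction of 0.55 ± 0.14. Cdc42ep3, an effector of the GTPase CDC42, was at 0.28 and -0.06, an interaction of 0.36 ± 0.093. Its difference in dorsal striatum was 0.23 without HS mouse 11, the lowest library (23.4 CPM). Both interactions had an adjusted p of 0.999 in edgeR. Rgs2 was at 0.31 in dorsal striatum and 0.05 in NAc, while Dnajb1 (0.40 and 0.34), Nr4a3 (0.60 and 0.55) and Fosl2 (0.48 and 0.50) had close values in both. Chaperones were higher for 16 of 18 in NAc (median 0.14) and immediate early genes for 30 of 34 (median 0.23), and cortical and hippocampal markers there for 11 of 13 (median 0.51).

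Over the other regions the chaperone median was 0.12 in PFC, 0.09 in BLA, 0.15 in vHPC and 0.13 in VTA, against 0.20 in dorsal striatum. Dnajb1 was higher in all 5 other regions, by 0.17 in BLA, 0.18 in VTA, 0.21 in PFC, 0.22 in vHPC and 0.34 in NAc. Fbxo30 was at 0.20 in PFC, 0.17 in BLA, 0.10 in vHPC, -0.06 in NAc and -0.08 in VTA. The immediate early median was highest in PFC, at 0.33 with 33 of 34 higher. For HH against HS edgeR called 5 of 19976 genes in PFC and 0 in BLA, vHPC and VTA. Fosl2 was called in PFC, with a log2 difference of 0.40 (adjusted p = 0.0292 with edgeR). These regions came from the same mice and are not independent of dorsal striatum. The VTA values use 7 HH libraries, because 1 held fewer than 10 M counts and was left out.

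**Figure D5:**
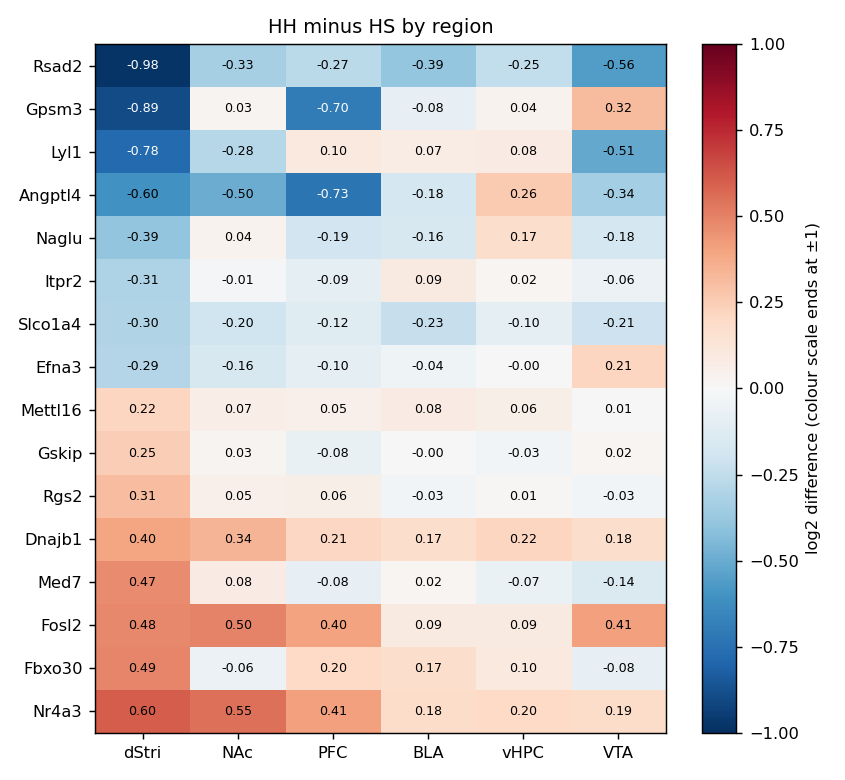
Log2 difference HH minus HS of the 16 genes with the smallest p in dorsal striatum (8 higher and 8 lower) in each of the 6 regions, from 1 fit per region. Nr4a3, Dnajb1 and Fosl2 are positive in every region, and so is Mettl16, at 0.01 to 0.08 outside dorsal striatum. Rgs2, Gskip and Med7 lie between -0.14 and 0.08 outside dorsal striatum. Fbxo30 is at 0.20 in PFC, 0.17 in BLA and 0.10 in vHPC, but at -0.06 in NAc and -0.08 in VTA.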

How the data were processed

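Per the labels' protocols, total RNA (Qiagen RNEasy Micro) was depleted of rRNA and sequenced from stranded Illumina TruSeq Gold libraries. The submitters' processing notes name HISAT2, SAMtools, HTSeq and FastQC, and mm10 as the genome; versions, the strand setting and the annotation release are not given in the sources used here, so overlapping and antisense genes are uncertain. The authors deposited raw counts of reads for each Ensembl gene, 1 column per library, and no normalization of them is recorded. Only this table was used.

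Counts were analysed in R 4.3.3 with edgeR 4.0.16: the 32 dorsal striatum libraries of the 30 d groups (SS, SH, HS, HH) entered 1 fit with a coefficient per group, genes kept with filterByExpr at a minimum count of 10, TMM factors, the quasi-likelihood test and Benjamini-Hochberg adjustment over all genes tested, called under 0.05. CPM are TMM-scaled, log2 values carry a prior count of 1, and SE is the log2 difference divided by the root of F. The p-values set a difference against the spread between mice. In the test of dorsal striatum against NAc they set it against the spread left after the mouse block. DESeq2 1.42.0, RLE factors, no filter, the mouse set or a cortical marker score as a term, HH and HS libraries only and each library left out in turn were the alternatives. For SH against SS and the interaction, the 3 SH libraries highest for cortical markers were also left out, an alternative added after seeing the data. The region test used HH and HS libraries of dorsal striatum and NAc (32 libraries, 16 mice) with the mouse as a block, since both regions came from the same animals. HH and HS mice share no number. The mouse set is the code set in the label of a mouse's BLA library; within-set differences are of mean log2(CPM + 0.1). In no pair of HH or HS libraries did the chi-square per degree of freedom fall below 10.28, so none was treated as a duplicate. Scripts were checked on simulated data.

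Groups, comparisons, the 12 process lists, the 14 cell type lists (400 genes, 398 in the table) and the rule for named genes were chosen with earlier results of these data known. The rule took, among genes at a mean of at least 1 CPM and leaving out clone and model symbols, the 8 higher and 8 lower with the smallest p, 2 genes per process list, 3 per interaction test, and Fos, Oprm1, Penk, Pdyn, Drd1, Drd2 and Fkbp5. Other genes named are list members chosen after their values were seen. Symbols and coordinates are from GENCODE M21 (mm10), which matched 52403 of 52636 genes; promoters are from RefSeq (GRCm38.p6), and a missing entry was not looked for elsewhere.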

Additional observations from a re-analysis of the deposited data

Results flagged for a closer look

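Each named gene, list mean and library measure was searched in the 8 HH and in the 8 HS libraries. In 16 cases 1 library was set off from its group by more than 0.526 of the group's range. Chance gives such a gap in about 1 in 20 searches. With the means of 26 lists and every named gene searched in both groups, chance alone would give several such cases. Whether the 16 cases exceed the number given by chance was not tested. In HH, mouse 7 held the highest Nr4a3 (60.8 CPM, the others up to 42.5) and the highest Tinagl1 (12.7 CPM, the others up to 8.86), and mouse 25 the highest Hspa1a (10.85 CPM, the others up to 4.29). HH mouse 9 was set off for 5 measures: the highest Gskip (53.8 CPM) and Pnoc (7.24 CPM), the lowest mean log2 CPM of the striatal projection neuron list (9.53, the others at least 9.76), and the highest of the olfactory and lateral septal or pallidal neuron list (3.79, the others up to 3.02) and of the astrocyte list (7.33, the others up to 7.02). HH mouse 5 had the lowest total, 22.91 M counts, the others at least 32.13 M.

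In HS, mouse 11, the library that stood apart over all genes, held the lowest Fbxo30 (5.21 CPM, the others at least 7.35), the lowest Cdc42ep3 (23.4 CPM, the others at least 31.6) and the highest Nxph3 (12.7 CPM, the others up to 7.40). HS mouse 3 held the highest Grik5, a kainate receptor subunit (247.97 CPM), and the highest Hr (23.7 CPM), HS mouse 20 the highest Penk (1264 CPM, the others up to 1138), and HS mouse 14 the highest mean log2 CPM of the microglia list (5.10, the others up to 4.83).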

How the results depend on the processing

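For HH against HS in dStri edgeR called 0 genes with RLE factors, with no low-count filter, with the mouse set or a cortical marker score as a term and with HH and HS libraries only. In these fits the number with an unadjusted p under 0.05 ran from 686 to 3992. They did not test the same number of genes, since every gene with a count was kept without the filter, so these numbers are not shares of 1 total. Leaving out each of the 32 libraries also gave 0, with 615 (without HS mouse 11) to 1099 (without HS mouse 2) at an unadjusted p under 0.05. DESeq2 called 3 genes. With 1 of the HH and HS libraries left out, an alternative added after seeing the data, it called 0 in 5 cases and otherwise 1, 2, 3, 4 (without HH mouse 1), 5 (without HS mouse 12) or 6 (without HH mouse 16). The heroin effect by history gave 0 calls under every alternative run. The test of dorsal striatum against NAc gave 0 calls with no replicate block (546 genes at an unadjusted p under 0.05), 0 with RLE factors, 0 with each mouse left out, 1 with DESeq2 and 23 with no filter; the cause was not tested. Of the named genes, Dnajb1, Fbxo30 and Nr4a3 passed the threshold with DESeq2. Every list median moved by less than the SD of the list's mean over the HH libraries. That limit is wide: for the immediate early list the SD was 0.21 and the median 0.15, so a median could turn sign within it. The medians of the chaperone, immediate early, endothelial and mural, meningeal, blood, microglia and astrocyte lists kept their sign throughout, and 12 of the other lists turned sign in at least 1 alternative. Signs turned for Oprm1, with a cortical marker score (0.023) and with no filter (0.0053), and for Drd1 with a cortical marker score (-0.0075). With libraries left out, Oprm1 ran from -0.057 to 0.11, Drd1 from -0.010 to 0.035, Drd2 from -0.011 to 0.059 and Pnoc from -0.74 (without HH mouse 9) to 0.77. Genes near the filter, such as Gpsm3, Rsad2 and Atf3 at 1 or 2 CPM, are the least precise.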

Other observations

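The remaining genes named by rule in dorsal striatum had small or uncertain differences between HH and HS. Drd3, a dopamine receptor, was at 3.90 ± 0.90 CPM in HH and 3.26 ± 0.96 CPM in HS (SD, n = 8). Its log2 difference was 0.25 ± 0.20. Among the glutamate receptor genes, Grik5 differed by -0.12 ± 0.080 (-0.08 without HS mouse 3) and Grik1 by -0.39 ± 0.30 (-0.66 without HH mouse 9). Striatal interneuron markers had a median difference of -0.02 over 12 genes, direct pathway markers 0.01 over 8 and indirect pathway markers 0.02 over 6, with no unadjusted p under 0.05 in edgeR. Oligodendrocyte precursor markers had a median of -0.01 over 8 genes, and markers of olfactory and septal or pallidal neurons 0.15 over 8, which turned to -0.13 without HH mouse 9.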
